A study of Mus musculus with 40 samples.

Results

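The 9 transcription factor genes of the myogenic lineage, Myf5, Myf6, Myod1, Myog, Pax3, Pax7, Six4, Mef2a and Mef2c, were taken by name from the 21938 protein-coding genes of the mouse annotation. Each gene body with 20 kb on each side formed a window, and the windows held 259 of the 457842 peaks deposited for the series. The peaks came from chromatin immunoprecipitation with sequencing (ChIP-seq), which enriches DNA bound to a modified histone, in brown adipose tissue (labelled iBAT) of wild type C57BL/6N mice aged 20 weeks. Each of 8 mice gave a peak list for H3K4me3, H3K27ac, H3K4me1 and H3K27me3, 32 lists in all, and an input (chromatin sequenced without enrichment) that is not analysed here apart from its use by the authors in calling peaks.

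Mice 1 and 2 were housed warm on normal chow diet (NCD), mice 4 and 5 were held in the cold on NCD, mice 7 and 8 were housed warm on high-fat diet (HFD), and mice 10 and 11 were held in the cold on HFD. All mice ate chow until 8 weeks of age, the HFD mice then ate HFD for 12 weeks, and the cold mice spent 24 h at 4 °C. The tissue was bulk, so a mark in few cells and a weak mark in many cells cannot be told apart. H3K4me3 lists held 13517 to 24104 peaks, H3K27ac lists 3224 to 40604, H3K4me1 lists 12 to 27568 and H3K27me3 lists 20 to 6428, with fewer than 100 peaks in 2 H3K4me1 lists (mice 7 and 10) and 3 H3K27me3 lists (mice 1, 7 and 10). Mouse 7 had the shortest H3K4me3, H3K27ac and H3K4me1 lists, and mouse 5 had the longest H3K27me3 list. The depth of sequencing is unknown from the lists, so a missing peak is reported as not called rather than as a missing mark.

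Skeletal muscle cells form when basic helix-loop-helix factors of the MyoD family bind E-box sequences together with E proteins and switch on muscle genes. The paired-box factors Pax3 and Pax7 and the homeodomain factor Six4 act above them in progenitor cells, and MEF2 factors act with them on muscle genes. Brown adipocytes descend in part from Myf5-expressing progenitors that also give rise to muscle. H3K4me3 marks start sites that are active or open to activation, H3K27ac marks active promoters and enhancers, H3K4me1 marks enhancers, and H3K27me3 is laid down by Polycomb repressive complex PRC2 at silenced developmental genes. A start site with both H3K4me3 and H3K27me3 is called bivalent.

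The tissue carried the marks of brown fat at its own genes. All 8 brown adipocyte markers examined, among them Ucp1 and Cidea, had H3K4me3 at a start in every mouse, 6 to 8 of them had H3K27ac, and none had H3K27me3. Of 8 markers of skeletal muscle fibres, 1 to 3 per mouse had H3K4me3 at a start and 0 to 2 had H3K27ac. The muscle markers Ckm, Myh1, Myh4, Tnnt3 and Tnni2 had neither mark in any mouse. Of the other 3, Mylpf had H3K4me3 in 8 mice and H3K27ac in 6, Actn3 had them in 7 and 1, and Acta1 in 4 and 0. Of 7 satellite cell markers, a list that holds Pax7, Myf5 and Myod1 themselves, 1 to 2 per mouse had H3K4me3. The part of muscle cells in the values below was not tested.

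Sequences upstream of the starts are shown first because the starts of the members differed in their content of CG dinucleotides, the bases at which CpG islands are recognised. RefSeq promoters on GRCm38.p6 matched 6 of the 9 members and were not matched for Myf6, Myod1 and Pax3. The printed bases end before any annotated exon, run 5′ to 3′ on the strand of the gene, and carry CG dinucleotides in capitals. They lie at chr10:107486135-107486384 (minus strand) for Myf5, chr1:134289754-134289988 (plus) for Myog, chr12:73113457-73113675 (minus) for Six4, chr7:67372859-67373108 (minus) for Mef2a, and chr13:83503784-83504033 and chr13:83573357-83573606 (plus) for the most upstream and an internal start of Mef2c.
Myf5: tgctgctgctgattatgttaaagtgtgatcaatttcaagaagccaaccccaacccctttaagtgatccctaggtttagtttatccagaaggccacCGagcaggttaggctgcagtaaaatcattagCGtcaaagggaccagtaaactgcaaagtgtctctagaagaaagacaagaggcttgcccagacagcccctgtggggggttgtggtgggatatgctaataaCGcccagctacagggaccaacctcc
Myog: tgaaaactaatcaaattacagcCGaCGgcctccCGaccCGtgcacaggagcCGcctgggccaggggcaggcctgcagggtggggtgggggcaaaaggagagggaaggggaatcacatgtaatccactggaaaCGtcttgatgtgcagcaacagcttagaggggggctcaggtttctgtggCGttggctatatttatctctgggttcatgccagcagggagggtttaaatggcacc
Six4: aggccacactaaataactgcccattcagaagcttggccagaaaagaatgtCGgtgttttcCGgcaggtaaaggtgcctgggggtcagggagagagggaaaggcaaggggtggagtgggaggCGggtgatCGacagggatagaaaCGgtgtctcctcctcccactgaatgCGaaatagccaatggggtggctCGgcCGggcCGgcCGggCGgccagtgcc
Mef2a: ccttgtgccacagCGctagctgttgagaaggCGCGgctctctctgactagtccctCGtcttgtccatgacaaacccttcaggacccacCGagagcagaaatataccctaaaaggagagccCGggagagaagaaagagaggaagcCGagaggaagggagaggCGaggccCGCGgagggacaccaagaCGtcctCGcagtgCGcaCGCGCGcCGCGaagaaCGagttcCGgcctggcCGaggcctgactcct
Mef2c, most upstream start: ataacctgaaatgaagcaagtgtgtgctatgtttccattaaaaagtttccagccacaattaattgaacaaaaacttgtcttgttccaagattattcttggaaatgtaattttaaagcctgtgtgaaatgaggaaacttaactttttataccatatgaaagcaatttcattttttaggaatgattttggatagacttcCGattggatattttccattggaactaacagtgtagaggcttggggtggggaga
Mef2c, internal start: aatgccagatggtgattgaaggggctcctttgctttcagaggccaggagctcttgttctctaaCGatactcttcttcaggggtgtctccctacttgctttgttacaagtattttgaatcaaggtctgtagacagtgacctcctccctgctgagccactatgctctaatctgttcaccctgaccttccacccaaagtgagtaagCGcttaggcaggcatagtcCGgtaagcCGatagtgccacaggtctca

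The printed stretch of Mef2a held 21 CG dinucleotides in 250 bases and that of Six4 held 11 in 219 bases, against 3 in 250 bases for Myf5 and 1 in 250 bases for the most upstream start of Mef2c. The median over all 32851 RefSeq promoters was 6 in the 250 bases before the start. The E-box, searched as CANNTG on both strands, occurred 2 times in the 250 bases before the Myog start, 2 times before the most upstream Mef2c start, 1 time before the internal Mef2c start shown, and not in the other RefSeq promoter windows of the members. It occurred in 66.2% of all promoters. The strict MEF2 consensus, searched on both strands, was in none of the 9 promoter windows of the 6 matched members and in 2.92% of all promoters, which says only that these letters are not in these windows.

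Within 500 bp of the most upstream start, the ratio of observed to expected CpG was 0.888 at Mef2a, 0.669 at Pax3, 0.638 at Pax7, 0.616 at Six4, 0.48 at Myod1, 0.406 at Myf5, 0.379 at Myf6, 0.344 at Myog and 0.296 at Mef2c. The median over 21925 protein-coding genes was 0.571, with quartiles of 0.223 and 0.775. An internal Mef2c start 20501 bp downstream, which carried H3K4me3, had 0.701. Members above that median were Mef2a, Pax3, Pax7 and Six4, and 3 of these 4 had H3K4me3 at a start. None of the myogenic bHLH genes Myf5, Myf6, Myod1 and Myog reached the median. Across all genes the median ratio was 0.754 for the 9410 genes with H3K4me3 at a start in all 8 mice and no H3K27me3, 0.17 for the 7370 genes with neither mark, 0.665 for the 1175 genes with both and 0.489 for the 336 genes with H3K27me3 alone. These ratios are a description over genes, and no test was run on them.

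**Figure D1:**
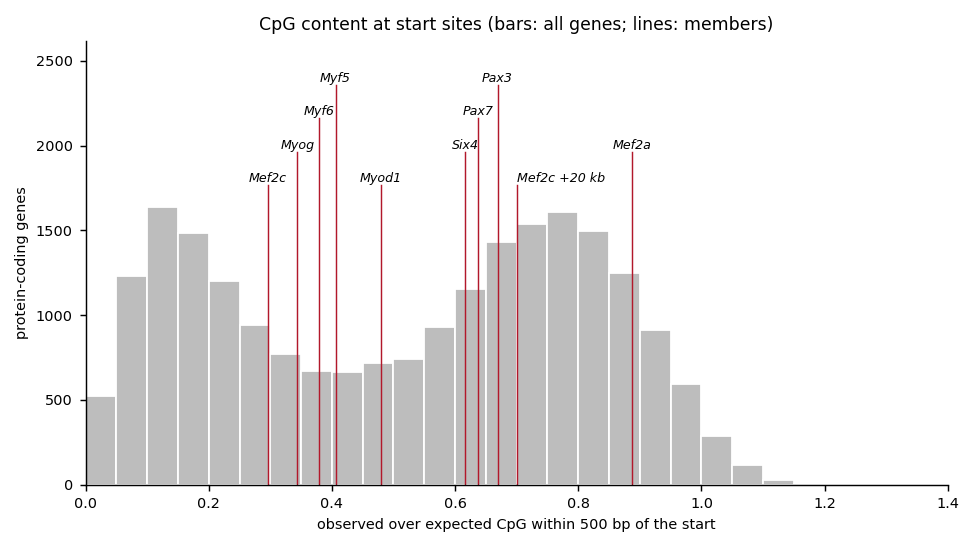
Observed over expected CpG (x axis, ratio) within 500 bp of the most upstream start, with bars counting protein-coding genes (y axis) and lines marking the members and the internal Mef2c start 20501 bp downstream. Mef2a at 0.888 lies in the CpG-rich part of the distribution, and Myf5, Myf6, Myog and the upstream Mef2c start lie between 0.296 and 0.406.

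The members fell into groups by the marks called in their windows. H3K4me3 was called in at least 1 mouse at 7 members, against 76.9% of all protein-coding genes. H3K27ac was called at 4 members (Myog, Six4, Mef2a and Mef2c), against 68.3% of genes, and H3K4me1 at 5 (the same 4 and Pax3), against 58.5%. H3K27me3 was called at 3 members (Myod1, Pax3 and Pax7), against 17.2% of genes. The same 3 members had H3K4me3 as well, against 15.8% of genes with both. Without mouse 5, whose H3K27me3 list was the longest, 3 members had H3K27me3 and 2 had both, against 5.53% and 5.06% of genes. Myf5 and Myf6 had no peak of any mark, as had 19.5% of genes. The members' windows spanned 41885 to 203047 bp, with a median of 53848 bp against 57425 bp over all genes.

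Closer to the genes, H3K4me3 was called within 1000 bp of an annotated start at 4 members (Pax3, Six4, Mef2a and Mef2c), against 64.9% of genes. H3K27ac was called there at 4 members (Myog, Six4, Mef2a and Mef2c), against 49.6%, and H3K4me1 at Myog alone, against 22.4%. This H3K27ac came from mouse 11 alone at Myog (443 bp) and from mouse 5 alone at Six4 (22 bp). Mef2a had it in 7 mice and Mef2c in 6. H3K27me3 was called at a start of Pax3 and Pax7, against 6.89% of genes, and only Pax3 had both H3K4me3 and H3K27me3 at a start, against 5.36% of genes. Without mouse 5, 1 member (Pax3) had H3K27me3 at a start, against 1.64% of genes. With 9 genes, chosen by name, these counts describe the members and were not tested against the background.

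**Figure D2:**
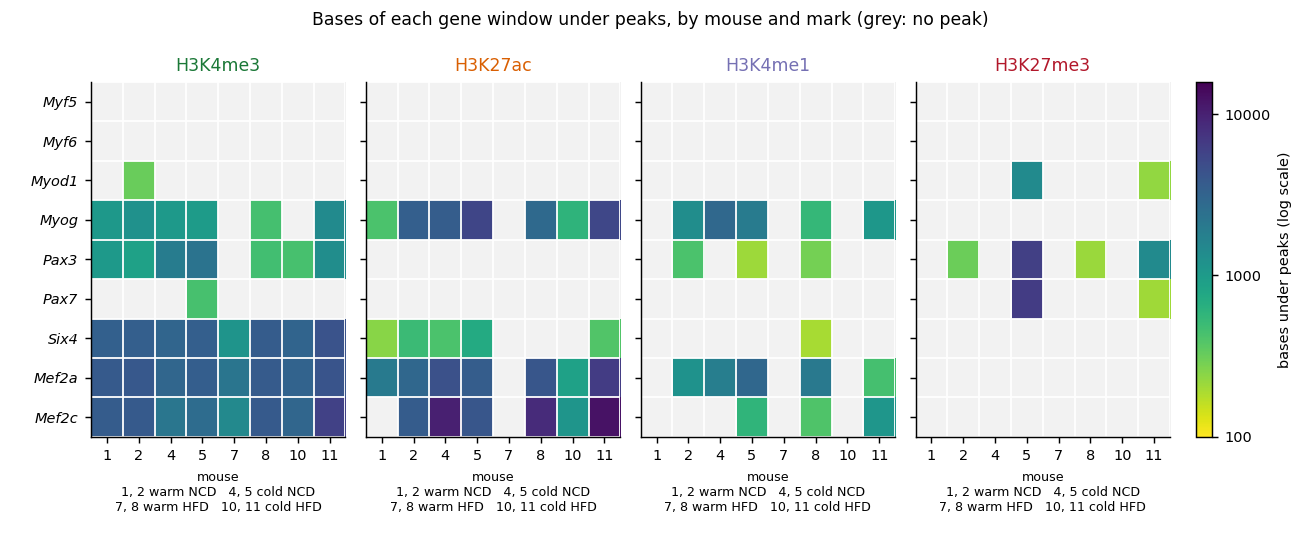
Bases of each gene window under peaks (colour, log scale, grey where no peak was called) for the 9 members (rows) in the 8 mice (columns) and the 4 marks (panels). Myf5 and Myf6 are grey in all panels, Six4, Mef2a and Mef2c carry H3K4me3 in all 8 mice, and H3K27me3 is called only at Myod1, Pax3 and Pax7, in mice 2, 5, 8 and 11.

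H3K4me3 and H3K27me3 at starts were compared over the 8 mice by Fisher's exact test (two-sided), adjusted by Benjamini-Hochberg over all genes. Six4, Mef2a and Mef2c had H3K4me3 in 8 of 8 mice and H3K27me3 in 0 of 8 (Fisher's exact p = 0.000155, adjusted p = 0.000362 each). At the threshold, H3K4me3 was in more mice for 57.4% of genes and H3K27me3 for 0 genes. Fisher's test treats the libraries of the 2 marks as independent, although both came from the same 8 mice. Within mice, an exact sign test gave p = 0.00781 and adjusted p = 0.0182 for each of these members. Of the 8 H3K27me3 lists, 6 held 20 to 309 peaks, against 13517 to 24104 in the H3K4me3 lists. These 6 lists reached the windows of only 10 to 314 genes each (0.0456% to 1.43% of genes). Almost any gene with H3K4me3 in all 8 mice would therefore pass, and hardly any could pass the other way. The outcome was nearly fixed by list length, and nothing is concluded from these p-values. By Fisher's exact test, Pax3 had H3K4me3 in 5 and H3K27me3 in 2 mice (adjusted p = 0.514), and Pax7 had 0 and 1 (adjusted p = 1). The 4 bHLH genes had neither mark at a start.

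Myf5, the earliest expressed of the MyoD family in the embryo and a marker of the shared lineage, spans chr10:107482908-107486134 on the minus strand. Myf6, also called MRF4 and expressed in muscle fibres, spans chr10:107492853-107494737 on the same strand. Their starts lie 8603 bp apart, so the windows overlap and their empty lists are not independent. No base of either window was under a peak in any of the 32 lists, those of H3K27me3 included.

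Myod1, the bHLH factor that can convert other cells to muscle, spans chr7:46376474-46379099 on the plus strand. Positions are given in bp from the most upstream start, negative upstream. H3K4me3 covered 320 bp of its window in mouse 2 and 0 bp in the other mice, and this peak lay at the start of the neighbouring potassium channel gene Kcnc1. H3K27me3 covered 1405 bp in mouse 5 and 228 bp in mouse 11, and 0 bp in the other mice. Only one of these H3K27me3 peaks, of 426 bp in mouse 5 at 1654 to 2079, lay in an exon of Myod1 itself. The remaining H3K27me3 peaks lay downstream, nearest to the start of Kcnc1. So neither mark was called at the Myod1 start in any mouse.

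Myog, encoding myogenin, the factor of terminal muscle differentiation, spans chr1:134289989-134292548 on the plus strand. H3K27ac covered 423 and 3420 bp of its window in warm NCD mice 1 and 2, 3544 and 5452 bp in cold NCD mice 4 and 5, 0 and 2796 bp in warm HFD mice 7 and 8, and 584 and 5388 bp in cold HFD mice 10 and 11. Every mouse except 7 carried it, and both cold NCD mice lay above the 4 warm mice, while the cold HFD mice lay on both sides of the warm HFD mouse 8. Its most recurrent H3K27ac region lay across and past the gene's end, at 2372 to 5500, in 7 mice, with folds over background of 5.77 to 13.2, and the strongest peak (mouse 11) ranked at percentile 93.8 of its own list. H3K27ac over the gene itself, at 558 to 2042, was called in cold mice 4, 5 and 11, with folds of 4 to 5.31 at percentiles 21.1 to 31.3. The H3K27ac lists of these mice held 30544, 30495 and 40604 peaks. Cold mouse 10 (14511 peaks) and warm mouse 8 (33798 peaks) had no such peak, and the part of list length was not tested. H3K4me1 covered 1323, 2879, 1921, 545 and 1082 bp in mice 2, 4, 5, 8 and 11, and 0 bp in mice 1, 7 and 10. Mice 1, 7 and 10 had the shortest H3K4me1 lists, with 592, 12 and 18 peaks, against 7774 to 27568 in the other mice.

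H3K4me3 was not called at the Myog start in any mouse. It covered 1063, 1222, 1038, 977, 0, 448, 0 and 1391 bp of the window in mice 1, 2, 4, 5, 7, 8, 10 and 11, mostly at 8507 to 9641. That region lies inside Ppfia4, a gene for a liprin scaffold protein on the opposite strand, and is 5178 bp from the nearest annotated start, that of Ppfia4. In mouse 5 its fold of 51.0 stood at percentile 62.1 of the list. The 200 bases around the summits of the strongest H3K27ac peak (mouse 11, chr1:134293450-134293649, outside any annotated gene) and the strongest H3K4me3 peak (mouse 5, chr1:134299202-134299401, partly in a coding exon of Ppfia4) are shown on the plus strand, because they differ in CG dinucleotides (capitals), 5 against 14.
Myog, downstream H3K27ac summit: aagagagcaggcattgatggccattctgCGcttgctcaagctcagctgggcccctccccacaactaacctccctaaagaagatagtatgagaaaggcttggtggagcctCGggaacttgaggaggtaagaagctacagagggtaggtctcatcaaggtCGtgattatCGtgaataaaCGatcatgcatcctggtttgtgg
Myog, downstream H3K4me3 summit: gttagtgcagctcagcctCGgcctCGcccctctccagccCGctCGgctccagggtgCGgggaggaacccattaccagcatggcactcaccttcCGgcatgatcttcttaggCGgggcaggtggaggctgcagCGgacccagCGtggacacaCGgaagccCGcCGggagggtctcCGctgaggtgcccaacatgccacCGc

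**Figure D3:**
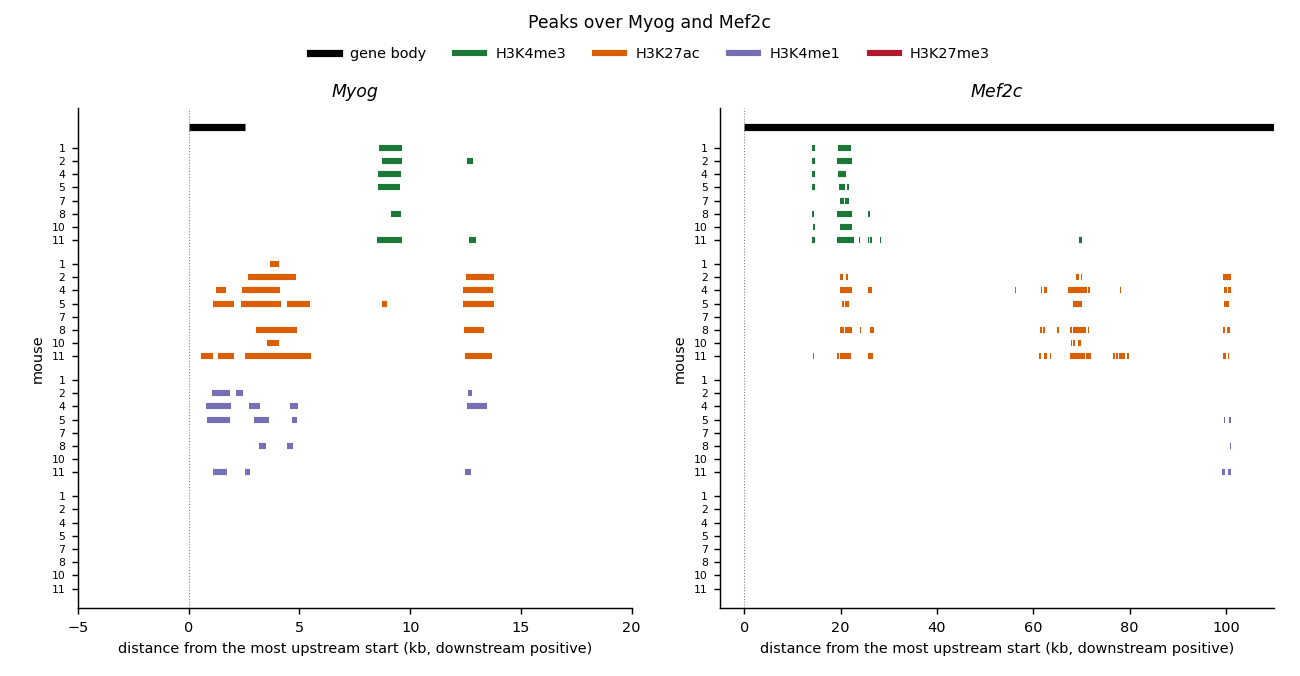
Peaks of each mouse (rows, blocks of 8 mice in the order of the key) at Myog and Mef2c against distance from the most upstream start (x axis, kb), with the gene body as a black bar. At Myog the H3K27ac and H3K4me1 peaks lie over and past the gene and H3K4me3 lies farther downstream, and at Mef2c H3K4me3 lies at 19301 to 22703 bp in all 8 mice while no mark lies at the upstream start.

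Pax3, the paired-box factor of the dermomyotome and of migrating muscle progenitors, spans chr1:78101267-78197134 on the minus strand and was the only member with H3K4me3 and H3K27me3 at a start. H3K4me3 within 1000 bp of a start covered 464 and 344 bp in mice 1 and 2, 867 and 961 bp in mice 4 and 5, 0 and 0 bp in mice 7 and 8, and 0 and 236 bp in mice 10 and 11. It was therefore called in 4 of 4 NCD mice and 1 of 4 HFD mice, a difference that did not pass the threshold (Fisher's exact p = 0.143, adjusted p = 1), and in 3 cold and 2 warm mice. These start peaks ranked low in their lists, between percentiles 2.56 and 28.1 by fold. A further H3K4me3 region at -7155 to -6253 was called in 7 mice (all but mouse 7), and one at -20472 to -19424 in mice 4, 5 and 11. H3K27ac was not called over Pax3 in any mouse, and H3K4me1 was called at -6559 to -6130 in mice 2, 5 and 8.

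H3K27me3 over Pax3 covered 313 bp in mouse 2, 6118 bp in mouse 5, 214 bp in mouse 8, 1390 bp in mouse 11 and 0 bp in mice 1, 4, 7 and 10. The 10 peaks of mouse 5 ran from -17009 to 56609, and the longest, of 2131 bp, lay across the start at -1167 to 963. Mouse 11 had 5 peaks, with 2 of them flanking the start at -762 to -521 and 506 to 758. In mouse 5 only 148 genes (0.675% of all) had more bases under H3K27me3 in their windows than Pax3, and in mouse 11 only 122 (0.556%), where 16.6% and 4.8% of genes had any. Windows differ in length, and these ranks were not adjusted for it.

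Bases under H3K4me3 and H3K27me3 in the same mouse were found at Pax3 in mouse 5, in 961 bp at -232 to 728 and in 210 bp at -6503 to -6294. The shared stretch at the start was the whole H3K4me3 peak of that mouse. In mouse 11, the H3K4me3 peak at 129 to 364 lay between the flanking H3K27me3 peaks and shared no base with them. Without mouse 5, 0 members had bases under both marks in the same mouse, and the share of genes with such shared bases was not computed. By the looser measure of each mark at a start in at least 1 mouse, Pax3 alone still counted without mouse 5, against 1.14% of genes. With all 8 mice, at 1137 genes (5.18%) H3K4me3 and H3K27me3 were called at a start in the same mouse. The 200 bases around the summit of the strongest upstream H3K4me3 peak (mouse 5, chr1:78203945-78204144, minus strand, outside any annotated gene) are shown because that region recurred in more mice than the start, and they hold 10 CG dinucleotides (capitals).
Pax3, upstream H3K4me3 summit: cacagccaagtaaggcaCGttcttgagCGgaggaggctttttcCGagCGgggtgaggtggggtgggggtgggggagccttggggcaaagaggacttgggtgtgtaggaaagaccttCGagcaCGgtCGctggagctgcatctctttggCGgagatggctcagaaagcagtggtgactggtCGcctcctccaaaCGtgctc

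Pax7, the paired-box factor that maintains muscle satellite cells, spans chr4:139737062-139833528 on the minus strand. H3K27me3 covered 6458 bp in mouse 5, 204 bp in mouse 11 and 0 bp in the other mice. The 10 peaks of mouse 5 lay at 684 to 12483 and, upstream, at -19250 to -14954, with folds of 3.67 to 5.92, and only 132 genes (0.602%) had more bases covered in that mouse. The single peak of mouse 11, at 9058 to 9261, lay in the same stretch of the gene. In mouse 11, 1012 genes (4.61%) had more bases covered, of 1052 genes with any. The Pax7 window spanned 136467 bp, against a median of 57425 bp over all genes, and the ranks were not adjusted for it. H3K4me3 was not called at a Pax7 start in any mouse, and its only peak, of 440 bp in mouse 5 at 11612 to 12051, had a fold at percentile 3.67 of its list and shared 152 bp with an H3K27me3 peak. Neither H3K27ac nor H3K4me1 was called in any mouse. The 200 bases around the summit of the H3K27me3 peak with the highest fold (mouse 5, chr4:139829319-139829518, minus strand, partly in a coding exon of Pax7) are shown to set the Polycomb-marked sequence beside the H3K4me3-marked ones, and they hold 3 CG dinucleotides (capitals) and 2 E-boxes (CANNTG).
Pax7, H3K27me3 summit: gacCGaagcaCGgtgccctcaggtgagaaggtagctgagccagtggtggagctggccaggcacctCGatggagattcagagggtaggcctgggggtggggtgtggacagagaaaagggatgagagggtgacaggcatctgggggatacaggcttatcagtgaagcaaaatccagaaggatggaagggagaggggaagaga

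**Figure D4:**
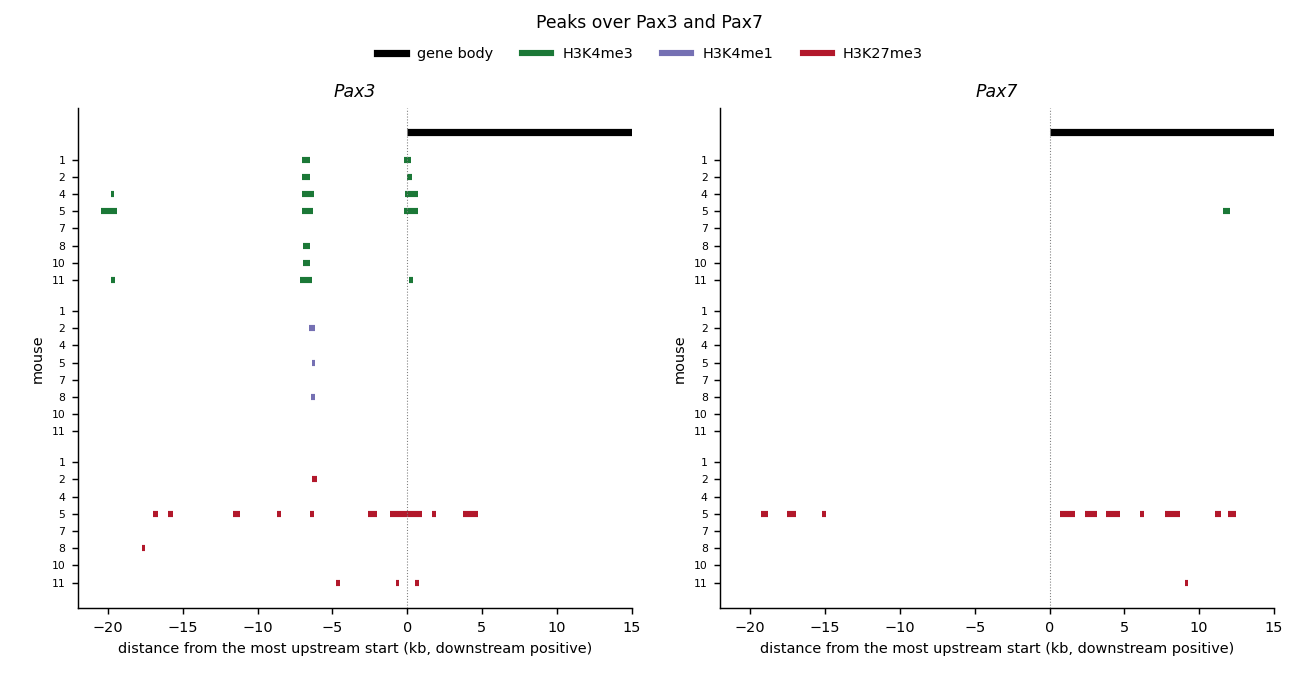
Peaks of each mouse (rows, blocks of 8 mice for H3K4me3, H3K4me1 and H3K27me3 from top to bottom) at Pax3 and Pax7 against distance from the most upstream start (x axis, kb), with the gene body as a black bar and peaks beyond 15 kb downstream left out. At Pax3 H3K4me3 lies at the start in 5 mice and upstream in 7, and H3K27me3 lies across the start in mouse 5, whereas at Pax7 the H3K27me3 peaks of mouse 5 lie on both sides of a start without H3K4me3.

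Six4, a homeodomain factor that acts upstream of the MyoD family, spans chr12:73099609-73113456 on the minus strand. At its start, H3K4me3 peaks of 2200, 2151, 2386, 2811, 248, 2246, 2128 and 2761 bp were called in mice 1, 2, 4, 5, 7, 8, 10 and 11, together spanning -542 to 2579. Mouse 7 stood apart, with a fold at percentile 16.6 of its own list, against percentiles 56.5 to 74.3 in the other mice. H3K27ac at a Six4 start was called in mouse 5 alone, where 22 bp lay within 1000 bp of a start. The H3K27ac of the window, called in mice 1, 2, 4, 5 and 11, lay otherwise at -10740 to -10239, at the start of the neighbouring gene Mnat1, which encodes an assembly factor of a cyclin-dependent kinase. H3K4me1 was called in mouse 8 alone, for 194 bp, and H3K27me3 in none. Six4 thus had H3K4me3 at its start in every mouse and H3K27ac there in 1 mouse.

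Mef2a, a broadly expressed MADS-box factor that works with the MyoD family, spans chr7:67231163-67372858 on the minus strand. H3K4me3 peaks at its start covered 2335, 2560, 1895, 2179, 1181, 2493, 1999 and 2913 bp in mice 1, 2, 4, 5, 7, 8, 10 and 11, and H3K27ac at the start covered 1728, 2067, 1780, 2601, 0, 2380, 871 and 3198 bp. Both marks were thus called together in 7 mice, and mouse 7 had H3K4me3 alone. The H3K27ac fold reached 30.3 in mouse 5, at percentile 99.7 of that list. H3K4me1 covered 1196, 1818, 2940, 2039 and 442 bp of the window in mice 2, 4, 5, 8 and 11, at the far end of the gene and in its first 5 kb rather than at the start. A further H3K4me3 region at 149462 to 150960 lay at the start of the neighbouring gene Lysmd4.

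Mef2c, a MADS-box factor of heart, vessel and skeletal muscle development, spans chr13:83504034-83667080 on the plus strand and has 11 annotated starts. No mark was called within 5 kb of its most upstream start. H3K4me3 was called at internal starts at 19301 to 22703 in all 8 mice, and in an intron at 13948 to 14753, 4686 bp from the nearest annotated start, in 7. Over the whole window H3K4me3 covered 3620, 3753, 2159, 2626, 1474, 3778, 2964 and 5926 bp in mice 1, 2, 4, 5, 7, 8, 10 and 11. H3K27ac covered 0, 3635, 10184, 4078, 0, 8509, 1118 and 12483 bp in the same mice. Its longest region, at 67273 to 72082 in 6 mice, lay over an internal start, and another, at 99356 to 101114, was called in 5 mice and also held H3K4me1 in mice 5, 8 and 11. The 200 bases around the strongest H3K4me3 summit at 13948 to 14753 (mouse 5, chr13:83518258-83518457, plus strand, in an intron) are shown beside the upstream start printed above, and hold 9 CG dinucleotides (capitals).
Mef2c, intronic H3K4me3 summit: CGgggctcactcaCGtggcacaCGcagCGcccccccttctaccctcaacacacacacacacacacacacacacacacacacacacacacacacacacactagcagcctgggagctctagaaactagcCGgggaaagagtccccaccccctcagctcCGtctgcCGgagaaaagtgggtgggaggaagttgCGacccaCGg

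Presence of each mark in the window was compared between 4 cold and 4 warm mice and between 4 HFD and 4 NCD mice by Fisher's exact test (two-sided), whose smallest p here is 0.0286. No member had a mark in 4 mice on one side and 0 on the other. By temperature, H3K4me3 showed such a split at 0.0228% of genes, H3K27ac at 0.0684%, H3K4me1 at 0% and H3K27me3 at 0%. By diet, H3K4me3 showed it at 0.0912% of genes, H3K27ac at 0.0684%, H3K4me1 at 0.0456% and H3K27me3 at 0.00456%. No gene of the genome passed the adjustment for any mark and factor, and 0 to 20 genes had an unadjusted Fisher's exact p under 0.05. With a smallest p of 0.0286, a gene could pass only if most of the 21938 genes reached that p together. The absence of passing genes was therefore nearly fixed by the group sizes, and nothing is concluded from it. The widest imbalances in mice at members were at Six4, with H3K27ac in 4 NCD mice and 1 HFD mouse (Fisher's exact p = 0.143), all but one of those peaks lying at Mnat1 (4 NCD mice and 0 HFD mice without mouse 11), and at the Pax3 start described above.

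Bases under peaks were compared with a two-sided exact permutation test over all 70 assignments of the mice. For H3K4me3 at Pax3, mice 1 and 2 had 1031 and 881 bp, mice 4 and 5 had 1898 and 2281 bp, mice 7 and 8 had 0 and 461 bp, and mice 10 and 11 had 441 and 1310 bp. On NCD the cold mice lay above the warm mice, and on HFD the values overlapped. The mean was 553 ± 548 bp on HFD and 1523 ± 676 bp on NCD (SD, n = 4 each, exact permutation p = 0.0857, adjusted p = 0.879), and 1482 ± 801 bp in the cold against 593 ± 463 bp in the warm (exact permutation p = 0.143, adjusted p = 1). For H3K4me3 at Myog the means were 460 ± 656 bp on HFD and 1075 ± 104 bp on NCD (SD, n = 4 each, exact permutation p = 0.143, adjusted p = 0.879). For H3K27ac at Myog they were 3742 ± 2284 bp in the cold and 1660 ± 1700 bp in the warm (SD, n = 4 each, exact permutation p = 0.171, adjusted p = 1).

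The lowest p of any member was that of H3K27ac at Six4 by diet, with 99.8 ± 200 bp on HFD and 472 ± 197 bp on NCD (SD, n = 4 each, exact permutation p = 0.0571, adjusted p = 1). Of the 6 peaks behind these values, 5 lay at the start of the neighbouring gene Mnat1. No member had a p under 0.05 for any mark and factor. Across all genes none passed the adjustment, and 0 to 460 genes had an unadjusted p under 0.05. The limit that the group sizes put on the adjustment of Fisher's exact test holds for the permutation test too. Mice 7 and 10, both on HFD, had the shortest H3K4me3 lists, with 13517 and 17195 peaks. They also had the shortest H3K27ac lists, with 3224 and 14511 peaks. The part of list length in the lower HFD values was not tested. Within each diet and temperature there were 2 mice, for which no exact test can reach the threshold.

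**Figure D5:**
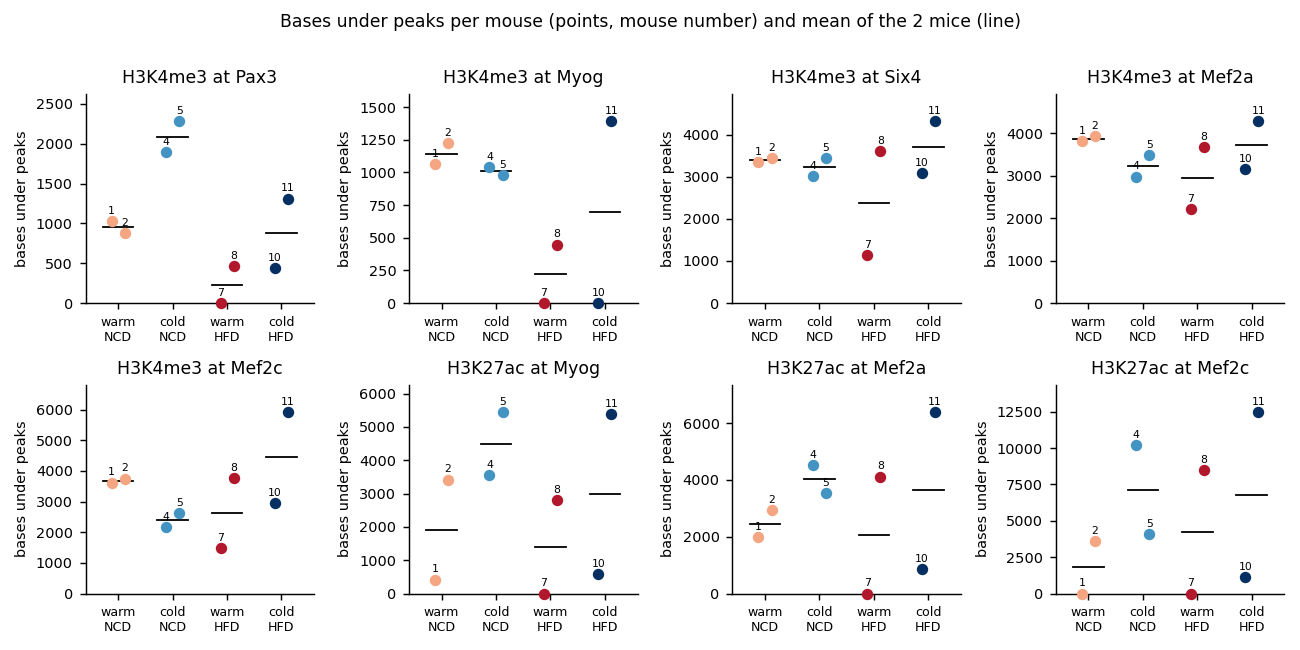
Bases under peaks (y axis) per mouse (points with mouse numbers) and their mean (line) in the 4 conditions (x axis, 2 mice each). Shown are H3K4me3 at Pax3, Myog, Six4, Mef2a and Mef2c and H3K27ac at Myog, Mef2a and Mef2c. H3K4me1 and H3K27me3 are not drawn. The 4 NCD mice lie between 881 and 2281 bp for H3K4me3 at Pax3 and the 4 HFD mice between 0 and 1310 bp, and for H3K27ac the mice of the same condition often lie far apart, as 0 and 8509 bp at Mef2c in warm HFD.

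Other genes of the same network were taken from a list of 25 regulators around the members. Of these, 24 had H3K4me3 at a start in at least 1 mouse, 14 had H3K27ac and 9 had H3K27me3, with 8 carrying H3K4me3 and H3K27me3 in the same mouse. The shares over all protein-coding genes were 64.9%, 49.6%, 6.89% and 5.18%, in the same order. The median was 7 mice with H3K4me3, as over all genes, against 0 mice for the members. Among the genes with H3K27me3 in at least 2 mice were Lbx1 (mice 5 and 11), a homeobox factor of migrating muscle precursors, and Tcf21 (mice 4 and 5), a bHLH factor of head muscle and mesenchyme. Tcf21 was the only one of the 25 without H3K4me3, and Lbx1 had H3K4me3 in 1 mouse and both marks in mouse 5.

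Of 16 muscle structural and fusion genes, 7 had H3K4me3 at a start in at least 1 mouse, 4 had H3K27ac and 2 had H3K27me3 (Chrng and Ryr1, mouse 5). The 9 without H3K4me3 included the creatine kinase gene Ckm, the fast myosin genes Myh1 and Myh4 and the fusion gene Mymk. Of 12 bHLH factors of other lineages, 5 had H3K4me3 and 6 had H3K27me3 at a start, the latter in 2 or more mice at Neurod1, a neuronal factor without H3K4me3, and at Tal1, a blood and endothelial factor with H3K4me3 in 7 mice. All 8 brown fat regulators examined, among them Prdm16, Ebf2 and Pparg, had H3K4me3 and H3K27ac at a start in at least 1 mouse and none had H3K27me3. The counts for the members were 4 of 9 with H3K4me3 and 2 of 9 with H3K27me3. Over all protein-coding genes, 64.9% had H3K4me3, 49.6% had H3K27ac and 6.89% had H3K27me3 at a start in at least 1 mouse. These lists are descriptions, and differences between them were not tested.

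Genes whose pattern was most like a member's were found over the 32 lists by the Euclidean distance between log10(1 + bases under peaks within 5 kb of the most upstream start). Nearest to Myog were Srl (distance 2.64), for a calcium-binding protein of muscle, and Hsd11b1 (2.83), for a glucocorticoid-activating enzyme. Nearest to Pax3 were H2-Q2 (0.56) and Nkx2-6 (0.628), a homeobox gene. Nearest to Six4 were Slc6a9 (0.419), for a glycine transporter, and Zfp704 (0.452), and nearest to Mef2a were Pak1ip1 (0.425) and Hnrnph1 (0.492). The same set of marked lists within 5 kb was shared by 159 genes with Mef2a, 34 with Six4, 16 with Pax3 and 0 with Myog. Mef2c had no peak within 5 kb of its most upstream start and no nearest gene is given for it.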

How the data were processed

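Peak lists of 32 ChIP-seq libraries were used, one for each mark and mouse. Per the study's methods, the authors trimmed reads with cutadapt, aligned them to GRCm38 with bowtie2 and called peaks with MACS2 against input. The sources used here do not give tool versions or the MACS2 cut-off. The fold enrichment, a ratio computed by the authors, and the deposited −log10 p-values and −log10 q-values ranked or filtered peaks inside a list. Folds are not comparable between lists, and ranges of folds over mice are descriptions. The strongest peak of a region was nevertheless picked by fold across mice. By percentile in its own list, mouse 4 ranked above mouse 5 at 3 of the printed H3K4me3 regions. The percentiles were 67.7 against 62.1 at Myog, 53.7 against 40.1 at Pax3 and 58 against 57 at Mef2c. Coordinates are 1-based on GRCm38, with starts and gene bodies from the GENCODE M21 basic annotation and promoters from RefSeq. Presence means at least 1 base under a peak in the gene body and 20 kb each side, or within 1000 bp of a start. Libraries were taken as one mouse each, by their labels, although the methods can be read as pooling mice. If so, p-values measure only the spread between these samples. Mouse numbers mark the same animal in every mark, and marks were also compared within mice. Tests ran over all 21938 protein-coding genes at a threshold of 0.05 and were checked on simulated peaks. Named were the 9 members, list genes with H3K27me3 in 2 or more mice or without H3K4me3 (at most 6 a list), the control genes and the nearest genes by pattern. Some list genes are not reported here. Mylpf, Actn3, Acta1, Chrng, Ryr1, Prdm16, Ebf2, Pparg and the neighbouring genes were named after their values were seen. The members and lists were chosen with earlier results of these data known. Python 3 with numpy, scipy and pandas was used.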

Additional observations from a re-analysis of the deposited data

Results flagged for a closer look

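Covered lengths over the members were screened in 55 groups of 4 or 8 mice for a mouse far from the others, and 15 groups were flagged. The cut-offs flag about 1 of 20 groups of independent, normally distributed values. Here many lengths are 0 and the groups share mice, so the number flagged cannot be set against that rate. At Myod1 and Pax7, only 1 mouse of the NCD group and 1 of the HFD group had any H3K27me3, which alone produces a flag. For H3K27me3, mouse 5 was the highest of all 8 mice at Pax7 with 6458 bp, at Pax3 with 6118 bp and at Myod1 with 1405 bp, against 204, 1390 and 228 bp in the next mouse. The same values stood apart among the NCD mice for all 3 genes and among the cold mice for Pax7 and Myod1. Among the HFD mice, mouse 11 was the highest at Pax3 with 1390 bp, at Myod1 with 228 bp and at Pax7 with 204 bp. The H3K27me3 lists of mice 5 and 11 held 6428 and 1392 peaks, and the other 6 lists held 20 to 309.

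For H3K4me3, mouse 7 was the lowest of all 8 mice, and of the warm mice, at Six4 with 1144 bp. It was also the lowest of the warm mice at Mef2a with 2218 bp and at Mef2c with 1474 bp. The next lowest warm mouse had 3353, 3677 and 3620 bp. The H3K4me3 list of mouse 7 was the shortest of that mark.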

How the results depend on the processing

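Of 300 recomputed values of 20 results, 283 stayed on the same side of the threshold or within 1.5 times the reported count. Among these are the counts of genes passing by temperature and by diet. They were 0 in all 16 alternatives and could hardly change with these group sizes. A fall in members with H3K4me3 in the window from 7 to 5 also counts as such, as with the gene body alone (76.9% to 68.1% of genes). A further 597 values of 40 results gave mouse counts at single members and shares of genes, and 94 of them moved beyond 1.5 times. Mice with H3K4me3 ranged from 0 to 5 at the Pax3 start and from 2 to 7 in the Pax3 window. At Myog they ranged from 0 to 6, the lowest with the gene body alone or 5 kb each side. With only peaks of −log10 q of at least 5, members with H3K4me1 in the window fell from 5 to 3 (58.5% to 27.1% of all genes), and H3K27me3 was left at 1 member, Pax3, in the window (6.41% of genes), at a start (2.34%), together with H3K4me3 (5.95% in the window) and under overlapping peaks. With lists of a mark cut to equal length, 2 members had H3K27ac in the window and 1 at a start (33.1% and 17.5% of genes, from 68.3% and 49.6%), 3 had H3K4me1 (43.6%), 1 had both H3K4me3 and H3K27me3 in the window (5.93%) and 0 at a start (1.04%) or overlapping, and 1 had H3K27me3 at a start (2.89%). With the gene body alone, 3 members had H3K4me1 (39.8% of genes), and with summits within 1000 bp of a start, 0 (18.6%). Leaving out each mouse gave 1 to 2 members with H3K27me3 at a start and 0 to 2 with overlapping peaks, the lowest in both without mouse 5. The share of genes with H3K27me3 at a start was then 1.64%, and that with overlapping peaks was not computed in any setting. Without mouse 11, 1 member (Six4, H3K27ac, mostly peaks at the start of Mnat1) was present in all NCD mice and in no HFD mouse (range 0 to 1). The share of all genes with such a split was not computed without mouse 11. With the mouse as replicate block, an exact sign test within mice found H3K4me3 in more mice than H3K27me3 at 11574 genes, against 12591 without the block, and at the same 3 members. The short H3K27me3 lists nearly fixed this outcome too. Leaving out peaks at the start of another gene, an alternative chosen after seeing the data, removed the H3K4me3 of Myod1. Myod1 then no longer counted among the members with both H3K4me3 and H3K27me3 in the window. It also left H3K27me3 at Myod1 in 1 mouse instead of 2, and H3K27ac at Six4 in 1 mouse instead of 5. List length limits what H3K27me3 and H3K4me1 can show.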
